A study of Mus musculus with 12 samples.

Results

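The subject is a set of 40 skeletal muscle genes measured in subcutaneous tumours, taken from 43698 rows of an RNA-seq count table by their gene symbols. The set holds 14 genes of fast fibres, 9 of slow fibres and 17 shared by both fibre types. It was assembled to gauge how much muscle transcript each tumour library carried. MC38, a colon carcinoma line of mouse origin, had been inoculated subcutaneously into the flank of C57BL/6J mice aged 8 weeks, and the tumours were taken on day 20. There were 6 groups of 2 libraries. RP mice received 20 µg of Ru-PD-L1, an antibody-catalyst conjugate directed at the checkpoint ligand PD-L1. R+X mice received the conjugate, at a dose not stated, and 14 µg of DOX (doxorubicin) 6 hours later. R+D mice received the conjugate and, also 6 hours later, 14 µg of DPD, read as the DOX prodrug of the series title. DOX mice received 14 µg of DOX, DPD mice 14 µg of DPD, and Ctrl mice PBS. The RP, DOX, DPD and Ctrl injections were intraperitoneal, every 3 days from day 9, whereas the drug of R+X and R+D was injected beside the tumour, so the route cannot be told apart from the combination. Whether the 2 libraries of each group are from different mice is not stated in the labels. The p-values therefore reflect only the spread between these samples, and that spread may be technical.

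Skeletal muscle fibres contract when calcium released from the sarcoplasmic reticulum binds troponin on the actin filament and lets myosin heads pull. Fast and slow fibres build this machinery from different genes: each has its own myosin heavy and light chains, its own troponin C, I and T, and its own calcium store proteins, while skeletal actin, creatine kinase, titin and nebulin are used by both. A colon carcinoma line is not a muscle tissue, but the flank has muscle beneath the skin, including the thin sheet under the dermis. Bulk RNA cannot tell apart fewer muscle cells from less muscle RNA per cell.

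The levels of 3 libraries stood far above the others: RP replicate 1, RP replicate 2 and R+D replicate 2. These were the 3 highest libraries for 30 of the 40 genes, an order that 4.55% of the 19525 genes tested showed. All 14 fast genes, 1 of the 9 slow genes, Mybpc1, and 15 of the 17 shared genes were among the 30. RP replicate 1 and R+D replicate 2 were the 2 highest libraries for 32 genes, against 4.26% of genes tested. The 10 exceptions to the order of 3 libraries were Myh7, Myl2, Myl3, Tnnc1, Tnni1, Tnnt1, Casq2 and Myoz2 of the slow genes and Eno3 and Pgam2 of the shared genes. Of these, Tnnt1 and Pgam2 were among the 32.

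Several muscle genes carry, just ahead of their start, letters that muscle transcription factors bind. Windows of 250 bases are printed for Acta1, Myh4, Ckm and Eno3. Acta1, skeletal actin, Myh4, the fastest myosin heavy chain, and Ckm, muscle creatine kinase, were high in the 3 libraries named. Eno3, beta-enolase, was about level in all 12. Capitals mark the E-box CAGCTG, which reads the same on both strands and is bound by MyoD-family factors, and the CArG box, bound by serum response factor. The sequences are from RefSeq (GRCm38.p6), 5′ to 3′ on the gene's strand.
Acta1, chr8:123894776-123895025, minus strand: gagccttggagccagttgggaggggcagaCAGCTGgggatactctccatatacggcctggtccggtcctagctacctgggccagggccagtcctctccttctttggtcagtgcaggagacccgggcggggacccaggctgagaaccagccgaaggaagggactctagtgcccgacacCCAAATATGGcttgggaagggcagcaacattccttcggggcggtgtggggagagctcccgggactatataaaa
Myh4, chr11:67237562-67237811, plus strand: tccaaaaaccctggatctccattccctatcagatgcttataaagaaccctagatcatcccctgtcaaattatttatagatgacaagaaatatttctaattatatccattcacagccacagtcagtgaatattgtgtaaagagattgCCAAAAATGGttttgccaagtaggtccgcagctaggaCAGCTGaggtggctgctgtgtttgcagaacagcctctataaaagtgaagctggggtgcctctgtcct
Ckm, chr7:19410844-19411093, plus strand: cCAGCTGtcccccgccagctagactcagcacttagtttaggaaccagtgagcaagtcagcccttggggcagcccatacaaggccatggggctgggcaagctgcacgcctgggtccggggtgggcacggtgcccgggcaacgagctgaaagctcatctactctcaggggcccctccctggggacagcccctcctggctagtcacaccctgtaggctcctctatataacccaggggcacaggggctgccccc
Eno3, chr11:70656926-70657175, plus strand: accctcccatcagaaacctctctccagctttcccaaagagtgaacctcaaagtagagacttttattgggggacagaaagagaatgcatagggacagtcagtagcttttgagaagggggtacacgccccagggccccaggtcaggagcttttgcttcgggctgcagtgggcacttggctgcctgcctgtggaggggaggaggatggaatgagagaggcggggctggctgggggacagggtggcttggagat
Acta1 and Myh4 each held 1 CAGCTG and 1 CArG box, Ckm held 1 CAGCTG and no CArG box, and Eno3 held neither. The window of Tnnc2, not printed, also held neither, though Tnnc2 was high in the same 3 libraries. Genes with CAGCTG included Tnni1, not set apart in those libraries, and Myl2 and Myoz2, both near 0. Motif and level thus did not always go together. RefSeq windows were found for 32 of the 40 genes, 39 windows in all. CAGCTG was in 46.2% of these and in 13% of the 32851 windows of all genes. The CArG box was in 12.8% against 1.47%, and the MEF2 box, bound by factors of that name, in 7.69% against 0.508%. A match of letters is a description and shows no binding in these tumours.

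Summed over the 40 genes, levels were 460 and 224.8 CPM (counts scaled with TMM to one library size) in RP, 126 and 109 in R+X, 142 and 558 in R+D, 146 and 97.5 in DOX and 131 and 121 in DPD, against 133 and 156 in Ctrl. Much of that sum was Eno3, which made up 16.03% of it in R+D replicate 2 and 76.0% in DOX replicate 1. Without Eno3 the sums were 361 and 140 CPM in RP, 42.6 and 29.1 in R+X, 50.3 and 469 in R+D, 34.9 and 27.4 in DOX and 34.7 and 38.8 in DPD, against 49.8 and 43.1 in Ctrl. Both RP libraries lay above both Ctrl libraries, while the R+D libraries differed from each other 9.33-fold and only replicate 2 stood clear of Ctrl. R+X replicate 1 lay close below Ctrl replicate 2, and R+X replicate 2 with all 4 DOX and DPD libraries lay further below. At its highest, in R+D replicate 2, the sum without Eno3 was 0.0469% of the TMM-scaled library, and at its lowest, in DOX replicate 2, it was 0.00274%. Muscle genes outside the set are not in this share.

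**Figure D1:**
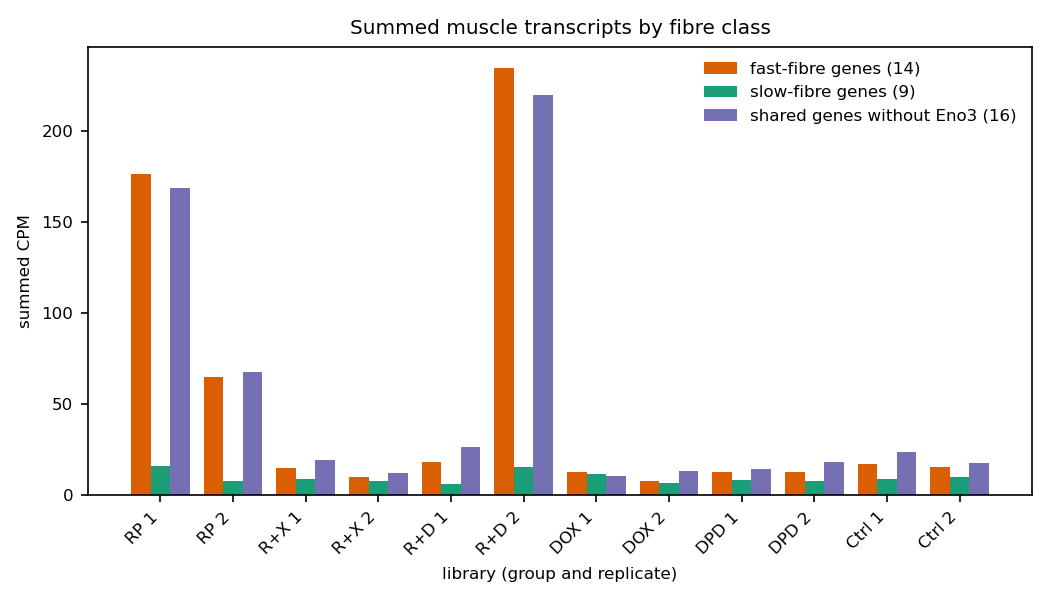
Summed CPM of the 14 fast-fibre genes, the 9 slow-fibre genes and the 16 shared genes without Eno3 in each of the 12 libraries (linear axis from 0). Fast and shared sums are high in RP replicates 1 and 2 and R+D replicate 2, where the slow sum is at most 16.1 CPM.

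As log2 ratios of group means, the sum of all 40 genes stood at 1.24 in RP, -0.30 in R+X, 1.28 in R+D, -0.25 in DOX and -0.20 in DPD, each against Ctrl. Without Eno3 the ratios were 2.43, -0.37, 2.48, -0.58 and -0.34 in the same order. The R+D ratio was set by its second library: without R+D replicate 2 it was -0.025, and without R+D replicate 1 it was 1.95. The RP ratio was 0.64 without RP replicate 1, and the DOX ratio was 0.0089 without DOX replicate 2. No test was run on these sums, since the genes were chosen with their levels known.

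Fast and slow genes spanned different ranges. The fast sum ran from 7.59 CPM in DOX replicate 2 to 234 in R+D replicate 2, a 30.8-fold range, and the slow sum had a 2.57-fold range, with its low end of 6.28 CPM in R+D replicate 1 and its high end of 16.1 in the first RP library. Tnnc1 and Tnni1 made up more of the slow sum than the other 7 slow genes in every library but RP replicate 1. Without these 2 genes the slow sum was 8.79 and 1.77 CPM in RP, 1.66 and 1.01 in R+X, 1.96 and 7.21 in R+D, 1.21 and 1.56 in DOX and 1.14 and 1.38 in DPD, against 2.22 and 1.23 in Ctrl, an 8.67-fold range. That sum was thus high in RP replicate 1, where Mybpc1 made up 5.89 CPM of it, and in R+D replicate 2, but not in RP replicate 2. On mean log2(CPM + 0.5), fast genes lay above slow genes by 2.74 and 2.08 in RP, 0.48 and 0.29 in R+X, 0.71 and 3.18 in R+D, 0.11 and 0.091 in DOX and 0.36 and 0.40 in DPD, against 0.59 and 0.40 in Ctrl. Fast genes made up 48.8% and 46.3% of the sum without Eno3 in RP and 49.9% in R+D replicate 2, against 27.7% to 36.5% in the other 9 libraries.

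**Figure D2:**
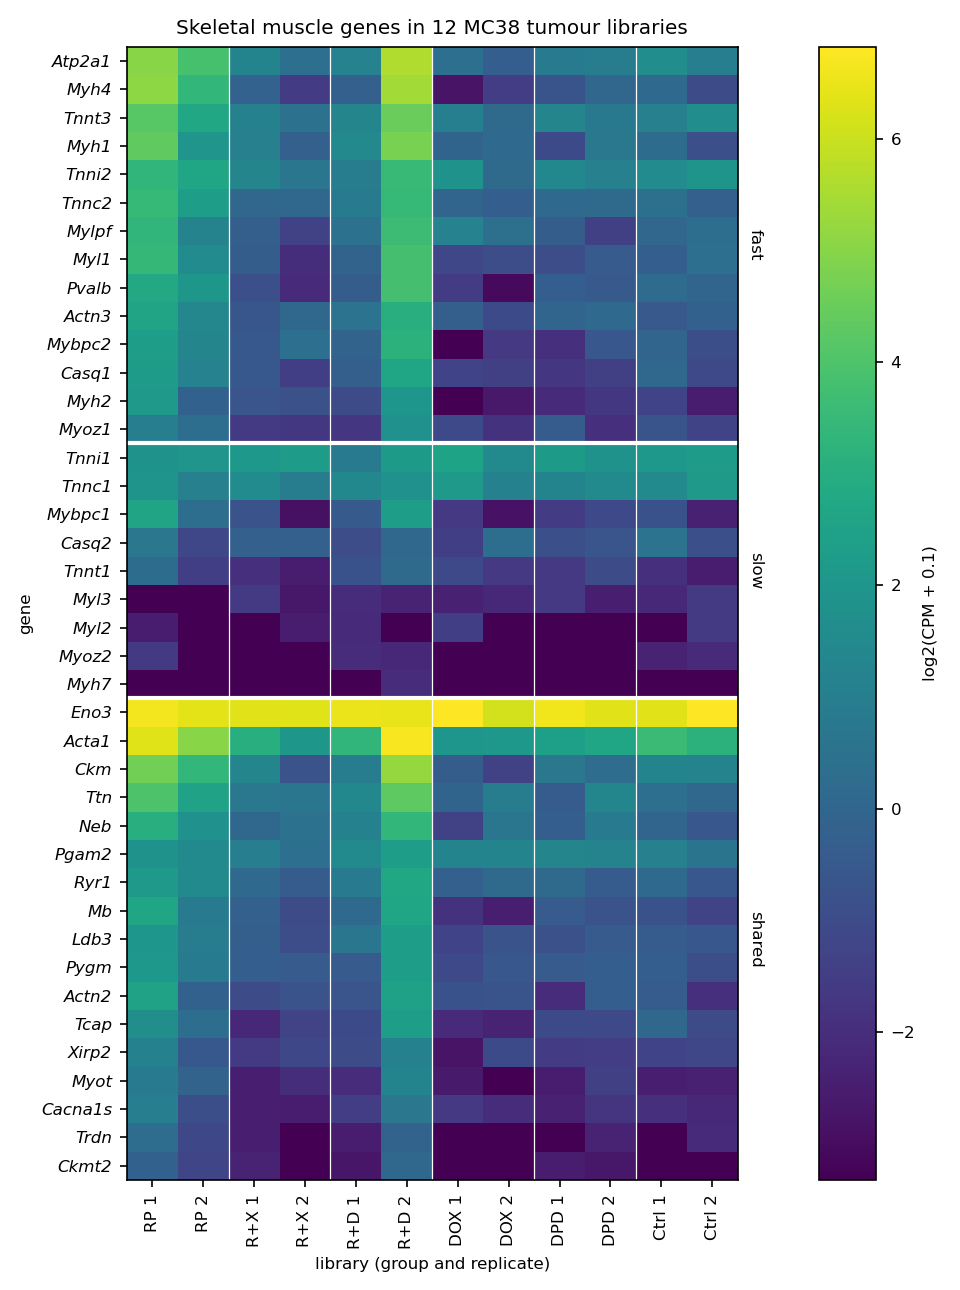
Heat map of log2(CPM + 0.1) for the 40 genes (rows, grouped as fast, slow and shared, and ordered by mean CPM) in 12 libraries (columns, by group and replicate). Columns RP 1, RP 2 and R+D 2 are bright in the fast and shared blocks, while the rows of Eno3, Tnni1 and Tnnc1 are even across libraries.

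Among the fast genes, Atp2a1, the calcium pump that refills the sarcoplasmic reticulum, had the highest mean CPM. It stood at 32.7 and 14.4 CPM in RP, 2.26 and 1.20 in R+X, 2.15 and 48.8 in R+D, 1.19 and 0.729 in DOX, 1.67 and 1.81 in DPD, against 3.02 and 1.90 in Ctrl. R+D replicate 2 was the highest and DOX replicate 2 the lowest, and R+D replicate 1 lay within the range of Ctrl. Atp2a1 overlaps Rabep2 on the opposite strand, as 22 of the 40 genes overlap a gene on the opposite strand, and since the use of strand in counting is not given in the sources used here, reads of such pairs cannot be told apart. Tnnc2, the fast troponin C that binds calcium, stood at 10.9 and 5.02 CPM in RP, 0.931 and 0.956 in R+X, 1.78 and 10.9 in R+D, 0.882 and 0.709 in DOX, 0.992 and 1.04 in DPD, against 1.24 and 0.766 in Ctrl. Its R+D replicate 1 value was above both Ctrl values, so both conjugate groups without DOX cleared Ctrl, while R+X lay inside the Ctrl range. Tnnc2 overlaps Ube2c, a cell-cycle gene, on the opposite strand. The fast troponin T gene Tnnt3 reached 18.1 CPM in the first RP library and 22.4 CPM in the second R+D library, and the fast troponin I gene Tnni2 reached 10.2 and 11.4 CPM there. Pvalb, the calcium buffer parvalbumin of the fastest fibres, stood at 6.78 and 4.08 CPM in RP, 0.455 and 0.134 in R+X, 0.698 and 14.0 in R+D, 0.243 and 0.0202 in DOX, 0.717 and 0.609 in DPD, against 1.08 and 0.882 in Ctrl. The lowest value was in DOX replicate 2. Both DOX, both R+X and both DPD libraries lay below both Ctrl libraries, as did R+D replicate 1. Other fast genes peaked in R+D replicate 2 as well: Mylpf, a regulatory light chain, at 12.3 CPM, Mybpc2, fast myosin binding protein C, at 8.97, Actn3, the fast alpha-actinin that anchors actin at the Z-disc, at 8.06, and Myoz1, a Z-disc protein, at 3.45. In Ctrl these 4 ranged from 0.325 to 1.16 CPM.

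The myosin heavy chains gave the fibre type in finer grain. Myh4, the chain of the fastest mouse fibres, stood at 34.2 and 10.5 CPM in RP, 0.807 and 0.249 in R+X, 0.771 and 42.7 in R+D, 0.0441 and 0.263 in DOX, 0.514 and 0.924 in DPD, against 1.00 and 0.418 in Ctrl. It exceeded 10 CPM in 3 libraries, while R+D replicate 1 lay inside the Ctrl range. Of the counts of Myh4, Myh1, Myh2 and Myh7 together, Myh4 took 57.9% in RP replicate 1 (95% Wilson interval 56.2 to 59.7, of 3138 counts), 69.6% in RP replicate 2 (66.6 to 72.5, of 915) and 57.8% in R+D replicate 2 (56.2 to 59.4, of 3575). Elsewhere its share ran from 4.88% in DOX replicate 1 (1.35 to 16.1, of 41) to 50% in DPD replicate 1 (37.3 to 62.7, of 56). Those intervals cover counting error only. Myh1, the intermediate fast chain, took the largest share in R+D replicate 1, at 69.2% (62.7 to 75.1, of 208). It also did so in both R+X, both DOX and both Ctrl libraries and in DPD replicate 2. Its share there ran from 45.5% in Ctrl replicate 1 (37.0 to 54.3, of 123) to 95.1% in DOX replicate 1 (83.9 to 98.7, of 41). Myh2, the slowest of the fast chains, took 0% to 32.1%. Myh7, the slow chain, had 7 counts in R+D replicate 2 and 0 in the other 11 libraries. In RP replicate 1 a count of 0 allows a Myh7 share of up to 0.0956% (3 counts of 3138), and its Wilson upper limit is 0.122%. Myh1, Myh2 and Myh4 are near-identical neighbours on chromosome 11 (plus strand, GRCm38; Myh2 at chr11:67171027-67197517, Myh1 at chr11:67200052-67224575 and Myh4 at chr11:67238029-67260446), so reads could be split between them. Myl1, a fast light chain, has a second row under a name copy that moved alike, at 2.22 CPM in RP replicate 1 and 2.23 CPM in R+D replicate 2, and its level is therefore uncertain.

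**Figure D3:**
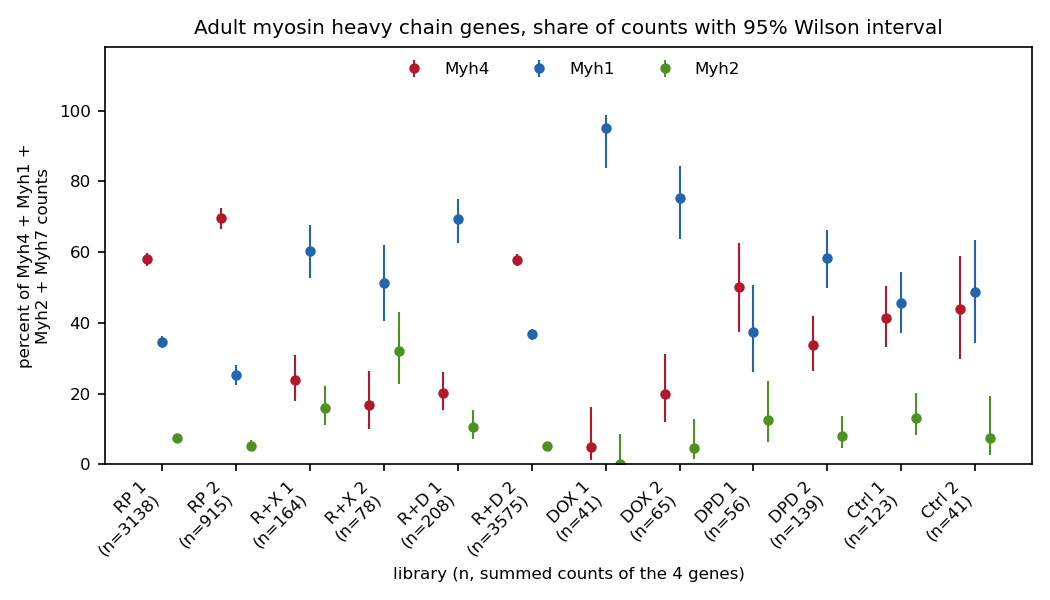
Percent of the summed counts of Myh4, Myh1, Myh2 and Myh7 that fell to Myh4, Myh1 and Myh2 in each library, with 95% Wilson intervals and the summed count under each library. Myh4 is the largest share, 57.8% to 69.6%, in RP replicates 1 and 2 and R+D replicate 2.

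The slow genes split into level and variable members. Tnni1, the slow troponin I and the slow gene of highest mean CPM, stood at 3.61 and 3.80 CPM in RP, 4.10 and 4.67 in R+X, 1.76 and 4.50 in R+D, 5.89 and 2.75 in DOX, 4.58 and 3.60 in DPD, against 4.16 and 4.60 in Ctrl. DOX replicate 1 was the highest and R+D replicate 1 the lowest, and the 3 libraries rich in fast transcripts were not set apart. Tnnc1, the troponin C of slow and cardiac muscle, ran from 1.82 to 4.37 CPM, with DOX replicate 1 again the highest, and overlaps Nisch on the opposite strand. Mybpc1, the slow myosin binding protein C, stood at 5.89 and 1.16 CPM in RP, 0.497 and 0.0383 in R+X, 0.624 and 4.85 in R+D, 0.221 and 0.0405 in DOX, 0.239 and 0.373 in DPD, against 0.491 and 0.0929 in Ctrl. It followed the fast genes, as did the slow troponin T gene Tnnt1 in part, at 1.09 CPM in the first RP library and 1.03 CPM in the second R+D library. Myl2 and Myl3, light chains of slow and ventricular muscle, were at most 0.265 and 0.232 CPM in any library, and Myoz2, a slow Z-disc protein, at most 0.226. Casq2, the calsequestrin of slow and cardiac muscle, ran from 0.265 CPM in DOX replicate 1 to 1.51 in RP replicate 1, with Ctrl replicate 1 next at 1.35. Myh7 and Myoz2 did not pass the filter on low counts, which leaves 38 of the 40 genes tested.

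Of the shared genes, Acta1 made the most of the difference between libraries. It stood at 80.7 and 32.5 CPM in RP, 8.03 and 4.00 in R+X, 10.3 and 106 in R+D, 3.97 and 4.19 in DOX, 5.13 and 6.23 in DPD, against 12.03 and 9.05 in Ctrl. R+D replicate 2 was the highest, DOX replicate 1 the lowest, and R+D replicate 1 lay between the Ctrl libraries. Ckm, which regenerates ATP in the fibre, stood at 25.2 and 10.5 CPM in RP, 2.34 and 0.497 in R+X, 1.82 and 37.5 in R+D, 0.706 and 0.304 in DOX, 1.53 and 1.14 in DPD, against 2.28 and 2.21 in Ctrl. Its lowest value, in DOX replicate 2, was 123-fold below its highest, in R+D replicate 2. Mb, the oxygen carrier myoglobin, which overlaps Apol6 on the opposite strand, stood at 6.06 and 1.78 CPM in RP, 0.766 and 0.402 in R+X, 0.991 and 6.26 in R+D, 0.176 and 0.0810 in DOX, 0.643 and 0.511 in DPD, against 0.491 and 0.325 in Ctrl. Both RP, both R+D and both DPD libraries lay above both Ctrl libraries, and both DOX libraries lay below them. Ryr1, the calcium release channel, stood at 4.33 and 2.77 CPM in RP, 1.01 and 0.669 in R+X, 1.69 and 6.76 in R+D, 0.772 and 1.03 in DOX, 1.05 and 0.668 in DPD, against 1.00 and 0.580 in Ctrl. Again both RP and both R+D libraries exceeded Ctrl. Ldb3, a Z-disc adaptor, stood at 3.97 and 1.80 CPM in RP, 0.745 and 0.421 in R+X, 1.49 and 4.92 in R+D, 0.309 and 0.506 in DOX, 0.478 and 0.648 in DPD, against 0.667 and 0.580 in Ctrl. It showed the same order, with R+D replicate 1 the lowest of those 4. The filament rulers Ttn and Neb reached 19.5 and 10.3 CPM in R+D replicate 2, against 0.580 to 1.22 in Ctrl, and Pygm, the muscle glycogen phosphorylase, reached 4.94, against 0.441 to 0.726. Actn2, the alpha-actinin of all fibres, Xirp2, an actin-binding repeat protein, and the calcium release partners Cacna1s and Trdn were highest in RP replicate 1, at 5.59, 2.13, 1.90 and 1.15 CPM. Myot, a Z-disc protein, was highest in R+D replicate 2, at 2.31 CPM, against 0.0785 and 0.0929 in Ctrl.

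Eno3, the muscle isoform of the glycolytic enzyme enolase, stood at 99.3 and 85.2 CPM in RP, 83.5 and 79.6 in R+X, 91.9 and 89.5 in R+D, 111 and 70.1 in DOX, 96.5 and 82.3 in DPD, against 83.2 and 113 in Ctrl. Ctrl replicate 2 was the highest and DOX replicate 2 the lowest, a 1.61-fold range, so the libraries rich in other muscle genes were not set apart. Pgam2, the muscle phosphoglycerate mutase, had a 4.11-fold range, with R+D replicate 2 the highest at 4.96 CPM. Per kilobase of exon (GENCODE M21, GRCm38), Eno3 had the highest level over all libraries, 52.0 CPM per kb, ahead of Acta1 at 15.3 and Tnnc2 at 3.75. In R+D replicate 2 that order turned, with Acta1 at 69.3 and Eno3 at 51.5 CPM per kb, followed by Tnnt3 at 14.2, Atp2a1 at 14.0, Tnnc2 at 13.6 and Pvalb at 13.5. In Ctrl replicate 1 Acta1 was at 7.83 and Eno3 at 47.8 CPM per kb. Titin (Ttn), the spring of the sarcomere, had 117 kb of exon and 0.167 CPM per kb in R+D replicate 2.

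RP was compared with Ctrl to ask what the conjugate alone did to these transcripts. In edgeR's quasi-likelihood test, with p adjusted over all genes by Benjamini-Hochberg, 0 of the 38 genes tested passed an adjusted p of 0.05, against 0.0154% of all genes, and the smallest adjusted p was 0.127, for Tnnc2. At an unadjusted p under 0.05, 27 were higher and 1 lower, against 12% and 9.38% of all genes, and DESeq2 called 14 higher and 0 lower, against 3.84% and 2.36% of all genes. The median log2 fold change was 2.50, against 0.0577 over all genes. By class the medians were 2.59 for the 14 fast genes, -0.24 for the 7 slow genes tested and 2.91 for the 17 shared genes. Both RP libraries lay above both Ctrl libraries for 32 genes and below them for 2, where 32.3% and 27.1% of all genes did so. Tnnc2 averaged 7.94 ± 4.13 CPM in RP and 1.00 ± 0.333 in Ctrl (SD, n = 2 each), a log2 fold change of 2.98 ± 0.71 (SE). Of the fast genes Myh4 had the largest difference, 4.96 ± 1.45 (edgeR adjusted p = 0.154), with 22.4 ± 16.8 CPM in RP and 0.709 ± 0.412 in Ctrl. Mb stood at 3.25 ± 0.86 and Ttn at 3.28 ± 0.92, and the slow gene Mybpc1 at 3.56 ± 1.28. Ckmt2, the mitochondrial creatine kinase of muscle, had 0 counts in both Ctrl libraries and was at least 8.72-fold higher in RP (floor of 3 counts per library). It had 42 and 20 counts in RP, 46 in R+D replicate 2 and at most 5 elsewhere. Ckmt2, Trdn and Myot passed the filter on low counts only through those 3 libraries. Their place among the genes higher in RP or R+D was thus partly set by the filter. Myl3 went the other way, at 0 in both RP libraries and at least 3.30-fold lower there than in Ctrl, and it overlaps Pth1r on the opposite strand. Without RP replicate 1, Mb stood at 2.08 and Mybpc1 at 1.92, and without Ctrl replicate 1 Mybpc1 stood at 5.21. A fit of the RP and Ctrl libraries alone, which changed the genes kept, the scaling and the dispersion together, called 20 of 36 genes tested, where 2.77% of all 18262 genes in that fit passed.

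R+D against Ctrl gave fold changes of like size with a wider spread. Again 0 of the 38 passed edgeR, against 0% of all genes, with a smallest adjusted p of 0.314. At an unadjusted p under 0.05, 27 were higher and 0 lower, against 8.69% and 6.66% of all genes, and DESeq2 called 7 higher and 0 lower, against 0.825% and 0.364%. The median log2 fold change was 2.69, against 0.0441 over all genes, and both R+D libraries exceeded both Ctrl libraries for 17 genes and lay below them for 0, against 30.8% and 27.4% of all genes. Ryr1 had the smallest p, with 4.22 ± 3.58 CPM in R+D and 0.791 ± 0.297 in Ctrl (SD, n = 2 each) and a log2 fold change of 2.41 ± 0.61 (SE). Atp2a1 stood at 3.37 ± 1.04, Acta1 at 2.47 ± 0.82 and Ckm at 3.13 ± 1.10. Without R+D replicate 2 these last 3 turned to -0.21, -0.052 and -0.31, whereas Ryr1 stood at 1.07 and Mb at 1.26. RP and R+D were set against the same Ctrl libraries. Ckmt2, kept by the filter only through libraries where it was high, was at least 7.82-fold higher in R+D than in Ctrl.

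**Figure D4:**
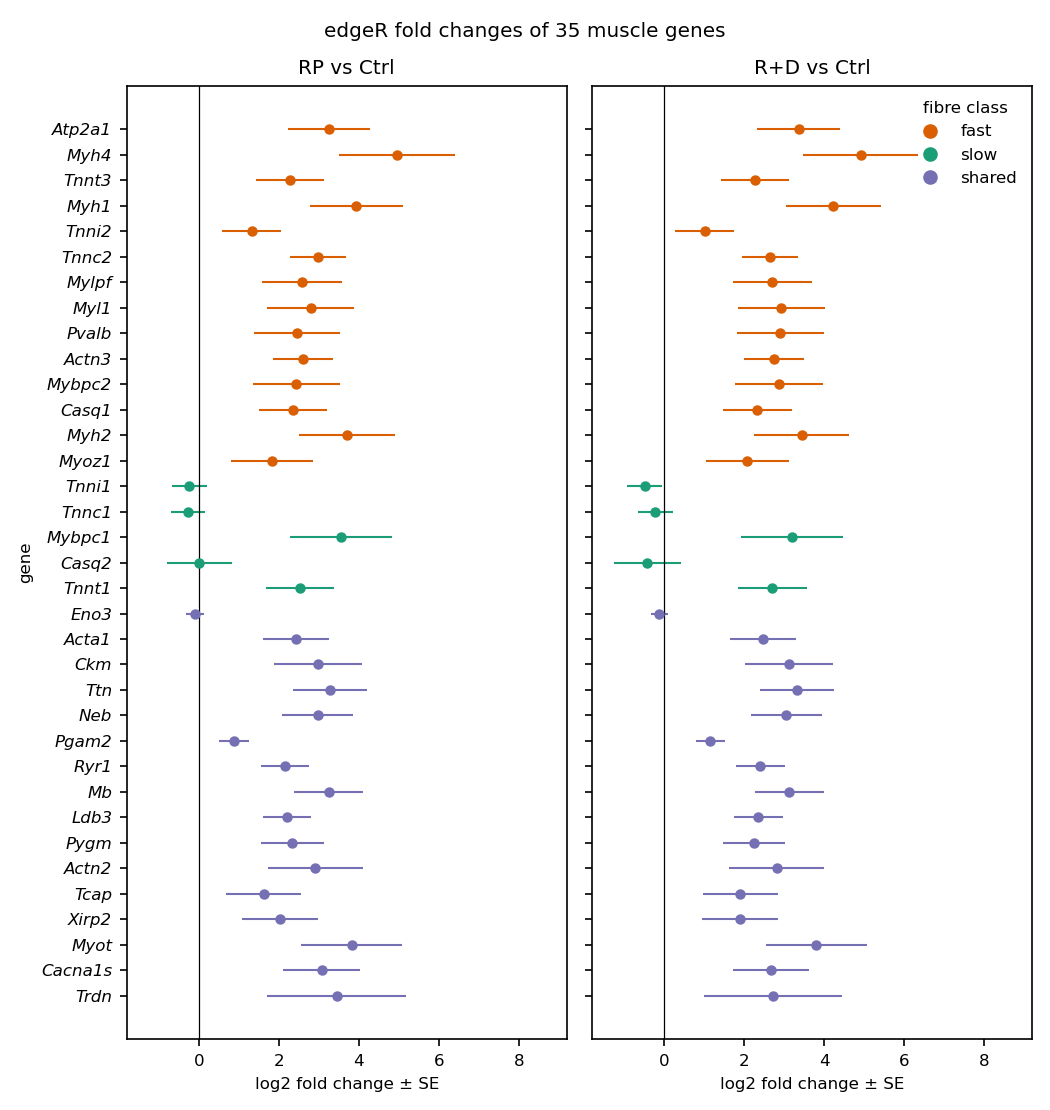
edgeR log2 fold changes (points) with standard errors (bars) of 35 genes in RP against Ctrl (left) and R+D against Ctrl (right), coloured by fibre class. Myl2, Myl3 and Ckmt2, at 0 in a group or nearly so, are left out. Fast and most shared genes lie right of 0 in both panels, while Tnni1, Tnnc1 and Eno3 lie at or just left of it.

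Median log2 fold changes in R+X, DOX and DPD against Ctrl lay below 0. In R+X, 0 of the 38 genes passed edgeR and 0 had an unadjusted p under 0.05, against 0% of all genes and 3.53% higher and 2.47% lower. DESeq2 called 0, against 0.0154% higher and 0.00512% lower. The median log2 fold change was -0.21, and both R+X libraries exceeded Ctrl for 3 genes and lay below it for 8, where 28.5% and 27.5% of all genes did so. Tcap, the cap of titin at the Z-disc, had the smallest p in R+X, at 0.225 ± 0.142 CPM in R+X and 0.690 ± 0.384 in Ctrl (log2 fold change -1.61 ± 1.02; edgeR adjusted p = 0.575). In DOX, 0 genes passed edgeR, against 0% of all genes, 0 were higher and 2 lower at an unadjusted p under 0.05, against 0.86% and 1.22%. DESeq2 called 0, against 0.00512% higher and 0% lower. Both DOX libraries lay below both Ctrl libraries for 14 genes and above for 3, where 9.43% and 8.29% of all genes did so, and the median log2 fold change was -0.56, or -0.42 with genes at 0 set to their bound. Tcap stood at 3.11 and 1.17 CPM in RP, 0.124 and 0.325 in R+X, 0.386 and 4.85 in R+D, 0.132 and 0.101 in DOX, 0.386 and 0.373 in DPD, against 0.962 and 0.418 in Ctrl. Both R+X, both DOX and both DPD libraries and R+D replicate 1 lay below both Ctrl libraries. The DOX and Ctrl values did not overlap (log2 fold change -2.55 ± 1.10; edgeR adjusted p = 1), nor did those of Pvalb (-2.91 ± 1.29; edgeR adjusted p = 1). In DPD, 0 genes passed edgeR, against 0% of all genes, 0 had an unadjusted p under 0.05, against 2.61% higher and 1.4% lower. DESeq2 called 0, against 0.0205% higher and 0.0154% lower. Both DPD libraries lay below Ctrl for 10 genes and above for 5, where 17.6% and 20.4% of all genes did so, with a median of -0.14. Casq1, the fast calcium store protein calsequestrin, stood at 0.202 and 0.275 CPM in DPD, against 0.962 and 0.371 in Ctrl (log2 fold change -1.49 ± 0.91; edgeR adjusted p = 0.725). Ckmt2 had the smallest p there, at 0.0735 and 0.0589 CPM in DPD and 0 in Ctrl, just above the floor of 3 counts.

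Averaged over the drug settings, the 3 conjugate groups were compared with the 3 groups without the conjugate. Of the 38 genes, 0 passed edgeR, against 0.0154% of all genes, with a smallest adjusted p of 0.145. At an unadjusted p under 0.05, 28 were higher and 1 lower, against 10.9% and 9.47% of all genes, and DESeq2 called 22 higher and 0 lower, against 2.67% and 2.2%. The median log2 fold change was 1.81, against 0.0285 over all genes. Mb had the smallest p, with a log2 fold change of 2.69 ± 0.51, followed by Myh2 at 3.75 ± 0.74. Myh2 was also the single gene whose 6 conjugate libraries all lay above the other 6, where 0.236% of all genes did so, and 0 genes had all 6 below, where 0.0768% did. It stood at 4.41 and 0.776 CPM in RP, 0.538 and 0.478 in R+X, 0.404 and 3.90 in R+D, 0 and 0.0607 in DOX, 0.129 and 0.216 in DPD, against 0.314 and 0.0696 in Ctrl, so the margin between R+D replicate 1 and Ctrl replicate 1 was narrow. The count of calls rested on which libraries were in the fit: 4 genes passed without R+D replicate 1 (Myh4, Tnnc2, Atp2a1 and Acta1) and 18 without DOX replicate 2, where 0.0291% and 15.6% of all genes passed.

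The effect of the conjugate was also compared between drug settings, as the difference of differences. In the presence of DOX its effect on the 38 genes differed by a median of -1.83 on the log2 scale from its effect without a drug, with 0 genes passing edgeR, against 0% of all genes, and 8 with an unadjusted p under 0.05, against 3.71%. In the presence of DPD the median difference was 0.12, with 0 passing, against 0% of all genes, and 1 with an unadjusted p under 0.05, against 4.46%. A test for any difference among the 6 groups called 0 of the 38 genes, against 0.0154% of all genes. It gave 30 an unadjusted p under 0.05, against 9.44%, and its smallest adjusted p was 0.212.

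DPD and DOX, a prodrug and its parent compound, were compared at the same dose of 14 µg, once alone and once after the conjugate, 2 pairs in all. DPD against DOX gave 0 genes passing edgeR, against 0% of all genes, 1 higher and 0 lower at an unadjusted p under 0.05, against 3.01% and 1.28%. DESeq2 called 0, against 0.0256% higher and 0.0205% lower. Both DPD libraries lay above both DOX libraries for 14 genes and below for 2, where 13.4% and 10.4% of all genes did so. Mb was that gene, at 0.643 and 0.511 CPM in DPD, against 0.176 and 0.0810 in DOX, a log2 fold change of 2.16 (95% interval 0.0288 to 4.28; edgeR adjusted p = 0.979). Pvalb stood at 2.34, with an interval of -0.53 to 5.22 that includes 0. R+D against R+X gave 0 passing edgeR, against 0% of all genes, 28 higher and 0 lower at an unadjusted p under 0.05, against 3.75% and 1.52%, and DESeq2 called 1 higher, Tnnc2, and 0 lower, against 0.179% and 0.0359%. Both R+D libraries lay above both R+X libraries for 22 genes and below for 0, where 22.5% and 23% of all genes did so. Ldb3 differed by 2.45 (95% interval 1.10 to 3.81; edgeR adjusted p = 0.82) and Acta1 by 3.28 (1.38 to 5.18), with 58.4 ± 68.0 CPM in R+D and 6.01 ± 2.85 in R+X (SD, n = 2 each). The R+D SD exceeded its mean, and without R+D replicate 2 the difference of Acta1 was 0.76 and that of Ldb3 1.34.

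Other muscle genes were read beside the 40. Of 52 further genes of mature muscle, 50 were tested. In RP against Ctrl, 0 passed edgeR, against 0.0154% of all genes. At an unadjusted p under 0.05, 8 were higher and 0 lower, against 12% and 9.38% of all genes. DESeq2 called 3 higher and 0 lower, against 3.84% and 2.36%. It gave no adjusted p to 20 of the 50, so these could not be called. The median log2 fold change was 1.02. In R+D against Ctrl, 0 passed edgeR, against 0% of all genes. There 8 were higher and 0 lower at an unadjusted p under 0.05, against 8.69% and 6.66% of all genes. DESeq2 called 0, against 0.825% higher and 0.364% lower, and gave no adjusted p to 17 of the 50. The median log2 fold change was 1.07. For 20 of the 50, the same 3 libraries were the highest, against 4.55% of all genes. Tpm2, beta-tropomyosin and the most abundant of the list, ran from 108 to 199 CPM and was highest in DOX replicate 1. Among 17 genes of developing or regenerating muscle, the satellite cell factor Pax7 had 0 counts in every library. Of the 12 tested, 0 passed edgeR in RP against Ctrl, against 0.0154% of all genes. At an unadjusted p under 0.05, 2 were higher and 2 lower, against 12% and 9.38% of all genes. DESeq2 called 0 higher and 2 lower, against 3.84% and 2.36%, and gave no adjusted p to 4 of the 12. Log2 fold changes of the 12 were above 0 for 7 and below 0 for 5. The 3 genes of highest mean, Chrnb1, Mef2c and Chrna1, were below 0, at -0.87, -0.098 and -1.07. In R+D against Ctrl they were at -0.64, -0.069 and -1.49, and 8 of the 12 were above 0. Embryonic Myh3 stood at 2.26 CPM in the first RP library and 0.971 in the second R+D library, with 0.177 and 0 CPM in the Ctrl libraries. Perinatal Myh8 stood at 2.58 and 1.24 CPM in the same 2 libraries, against 0.177 and 0.0232 in Ctrl, so both were well below the adult Myh4 there.

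Markers of other cell types moved with the muscle genes in part. The 15 T cell genes, of which 12 were tested, summed to 62.5 and 54.0 CPM in RP, 29.2 and 15.9 in R+X, 36.2 and 60.2 in R+D, 20.6 and 19.3 in DOX and 32.2 and 37.9 in DPD, against 32.9 and 26.5 in Ctrl. In RP against Ctrl, 0 of the 12 passed edgeR, against 0.0154% of all genes. At an unadjusted p under 0.05, 7 were higher and 0 lower, against 12% and 9.38% of all genes, and DESeq2 called 2 higher, against 3.84%. For 7 of the 12 the same 3 libraries were the highest, against 4.55% of all genes, and the receptor constant genes Trbc1 and Trbc2 were at 0 in every library. The 10 smooth muscle genes summed to 168 to 285 CPM, highest in RP replicate 1, and 4 of the 9 tested had the same 3 highest libraries, against 4.55% of all genes. Myh11, the smooth muscle myosin, was among these, at 8.23 and 2.11 CPM in RP and 4.59 in the second R+D library, and the Ctrl libraries held 0.392 and 0.487 CPM. Desmin (Des), which skeletal muscle also makes, stood at 18.4 and 7.50 CPM in RP and 21.9 in the second R+D library, while the Ctrl libraries held 6.57 and 6.45 CPM. The smooth muscle genes of highest mean, Smtn, Acta2 and Tagln, did not have the same 3 highest libraries. Their log2 fold changes were 0.074, 0.13 and -0.84 in RP against Ctrl. In R+D against Ctrl they were -0.085, -0.16 and -1.23.

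The cardiac myosin Myh6 was at 0 in every library, while Tnnt2, the cardiac troponin T, ran from 121 to 292 CPM and was highest in Ctrl replicate 2. Skin genes (16, all tested) summed to 310 to 597 CPM, highest in RP replicate 2, with Krt14 at a mean of 360 CPM. In RP against Ctrl their median log2 fold change was 2.41, close to that of the muscle genes, and 15 of the 16 values were above 0. There 0 passed edgeR, against 0.0154% of all genes. At an unadjusted p under 0.05, 1 was higher and 0 lower, against 12% and 9.38% of all genes, and DESeq2 called 1 higher, against 3.84%. The difference lay in RP replicate 2: the epidermal keratins Krt5, Krt1 and Krt77 stood there at 42.4, 49.0 and 17.3 CPM. In RP replicate 1 they stood at 0.734, 0 and 0, and the Ctrl libraries held 8.95 and 0.766 CPM of Krt5, 4.22 and 0 of Krt1 and 0.903 and 0 of Krt77. In R+D against Ctrl the median of the skin genes was -0.023. Nerve and Schwann cell genes (10) summed to 18.4 to 30.6, tendon genes (6) to 25.2 to 40.9, adipocyte genes (12) to 113 to 146 and epithelial genes (8) to 19.3 to 30.8 CPM. The nerve and tendon sums were highest in RP replicate 1, the adipocyte sum in DOX replicate 1 and the epithelial sum in R+D replicate 2. The muscle sum without Eno3 spanned a 17.1-fold range over the same libraries. The colon keratin Krt8 was at most 0.309 CPM in any library. The epithelial genes of highest mean were expressed in every library, Cdh1 at 9.90 to 18.1 CPM and Lgals4 at 7.35 to 12.8 CPM. The part of these other cells in the muscle results was not tested.

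**Figure D5:**
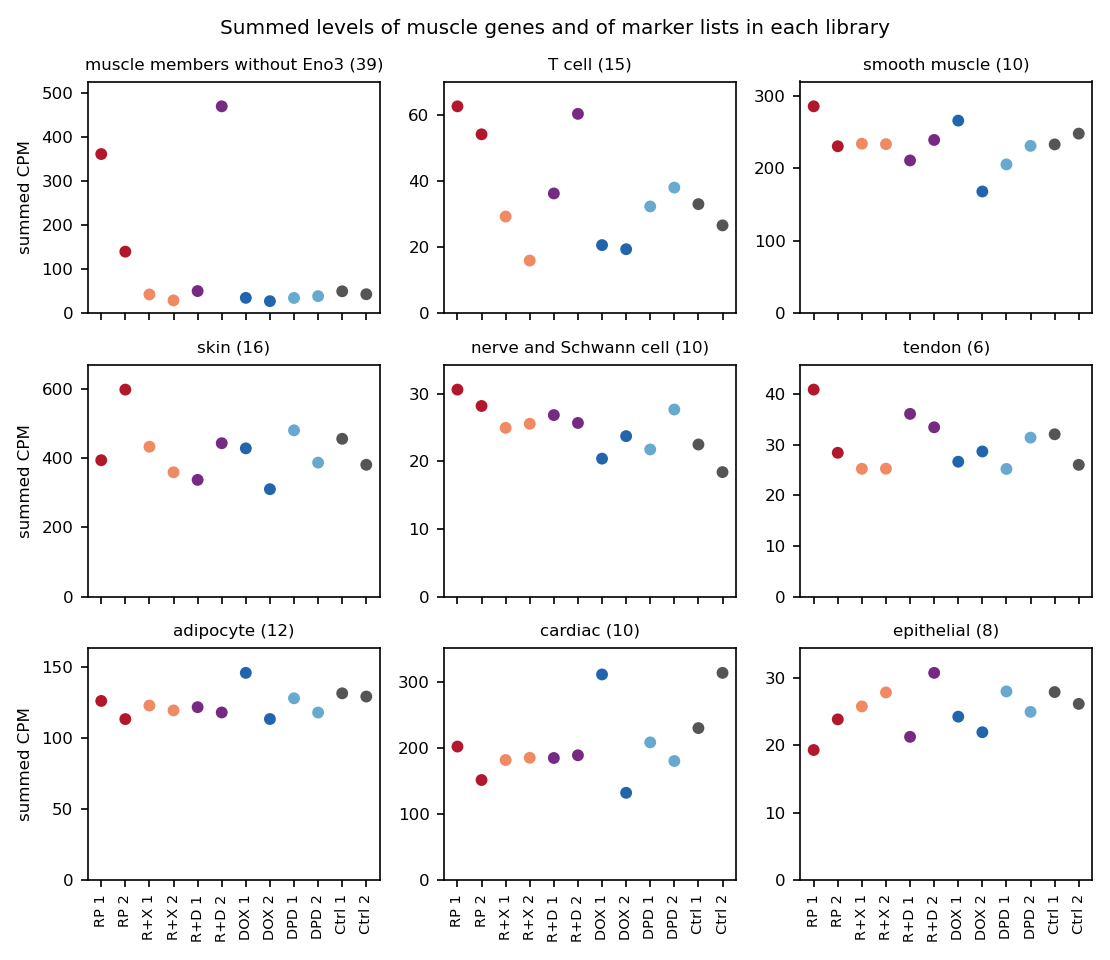
Summed CPM per library (points, coloured by group; each axis starts at 0) of the 39 muscle genes without Eno3 and of 8 marker lists, with the number of genes in brackets. The muscle sum reaches 469 CPM in R+D replicate 2 and the T cell sum is highest in the same 3 libraries, while the other sums span narrower ranges.

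Library depth did not follow the muscle sums: R+D replicate 2 had the smallest total, 46547114 counts, and RP replicate 2 the largest, 56462259, and both are among the 3 high libraries. The 2 libraries of a group differed beyond sampling noise, since chi-square over its degrees of freedom was 13.2 for R+X, the lowest, and 210 for DOX, the highest.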

How the data were processed

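Per the labels' protocols, TRIzol was used to extract total RNA and the NEBNext Ultra kit to prepare libraries. The deposited values are whole-number counts per gene, not normalised, and each of the 12 files of single libraries was identical to its column in the joint table. Per the submitters' processing notes, HISAT2 2.1.0, StringTie 1.3.5 and DESeq2 were used with GRCm38. What each tool did, with which annotation, strand setting and filters, is not given in the sources used. Groups follow the agent label. The code R+X was taken for Ru-PD-L1 and DOX, the agent spelled with an X, which leaves R+D for Ru-PD-L1 and DPD. With the opposite reading, R+X and R+D values would swap.

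Counts of all 12 libraries, as 6 groups, went into a single quasi-likelihood model of edgeR 4.0.16 (R 4.3.3) after filterByExpr and TMM scaling (19525 genes tested, 6 residual degrees of freedom, biological coefficient of variation 0.257). Contrasts were built with limma 3.58.1. The threshold was a p of 0.05 after Benjamini-Hochberg adjustment over all genes. CPM are counts relative to the TMM-scaled library, and 3 counts came to 0.0495 to 0.0696 CPM. Log2 fold changes carry standard errors from the same fit. The method was tested on simulated data. Alternatives were RLE scaling, library totals, no filter, DESeq2 1.42.0, only the 2 groups compared and each library left out.

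The members, the other gene lists and the tests were chosen with earlier results of these data known. All 40 genes could be named. Values in every library go to the gene of highest mean in each class and of smallest p in each comparison. Acta1, Ckm, Myh4, Myh2, Mybpc1 and Pvalb were added after their values were seen. Other lists name up to 3 genes of highest mean, and Myh3, Myh8, Myh6, Pax7, Myh11, Des, Krt1, Krt5, Krt77, Krt8, Trbc1 and Trbc2 after their values were seen. The pairs DPD against DOX and R+D against R+X, and the sum without Eno3, were added after seeing the data. Coordinates and exon lengths are from GENCODE M21 and promoters from RefSeq, both GRCm38.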

Additional observations from a re-analysis of the deposited data

How the results depend on the processing

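No paired analysis was possible because the labels number no replicates. The edgeR count of 0 genes passing was changed as follows. DESeq2 called 14 genes in RP against Ctrl, 7 in R+D against Ctrl, 22 for the conjugate groups against those without it and 1 in R+D against R+X. Of all genes it called 6.2%, 1.19%, 4.87% and 0.215%, in that order. It gave no adjusted p to 4, 4, 5 and 1 of the 38 genes, so these could not be called. A fit of only RP and Ctrl called 20 of 36 genes tested, where 2.77% of all genes passed. Leaving out 1 library gave 0 to 18 genes for the conjugate contrast (18 without DOX replicate 2, 4 without R+D replicate 1) and 0 to 6 for any difference among groups (6 without R+D replicate 1), and 0 in every other comparison. RLE scaling and no filter on low counts left all counts at 0.

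The log2 ratio of the summed CPM to Ctrl ran over left-out libraries from 0.64 to 1.67 in RP, -0.41 to -0.18 in R+X, -0.025 to 1.95 in R+D, -0.57 to 0.0089 in DOX and -0.31 to -0.077 in DPD. Without the 3 genes of highest mean CPM (Eno3, Acta1, Atp2a1) it was 2.35 in RP and 2.39 in R+D. Without Eno3 it was 2.43 in RP, 2.48 in R+D, -0.58 in DOX and -0.34 in DPD. In R+D against Ctrl, log2 fold changes over left-out libraries ran from -0.21 to 4.28 for Atp2a1, -0.052 to 3.31 for Acta1 and -0.31 to 4.04 for Ckm, the low ends without R+D replicate 2. Other wide ranges were -5.44 to -2.005 for Pvalb in DOX against Ctrl, -2.47 to -0.88 for Tcap in R+X against Ctrl, -2.003 to -0.63 for Casq1 in DPD against Ctrl and 1.44 to 4.88 for Pvalb in DPD against DOX. With 2 libraries a group, a left-out library leaves a lone one that is assumed to vary like the other groups. Levels under 0.0495 CPM lie below 3 counts, where no difference was detectable at this depth.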

Other observations

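Several genes of striated muscle that did not follow the 3 high libraries were highest in 2 others. Eno3 was highest in DOX replicate 1 and Ctrl replicate 2, at 111 and 113 CPM, against 70.1 to 99.3 CPM in the other 10 libraries. Tnnc1, at 4.37 and 4.29 CPM, Tnnt2, at 285 and 292 CPM, and Tpm2, at 199 and 177 CPM, also had their highest values in these 2 libraries, and Tnni1 was highest in DOX replicate 1, at 5.89 CPM. These genes were picked after their values were seen. DOX replicate 1 and Ctrl replicate 2 had the lowest TMM factors, 0.894 and 0.902, against 0.985 to 1.07 in the others. Scaled to library totals alone, Eno3 stood at 98.9 and 102 CPM there and at 103 CPM in RP replicate 1, which was then the highest. On library totals Tnnc1, at 3.90 and 3.88 CPM, and Tnnt2, at 255 and 264 CPM, still had their 2 highest values in DOX replicate 1 and Ctrl replicate 2. Tpm2, at 178 CPM in DOX replicate 1, was then next highest in RP replicate 1, at 163 CPM, ahead of Ctrl replicate 2 at 159.6 CPM.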
